A study of Mus musculus with 6 samples.

Results

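The genes described here are the 8 collagen genes that code for the chains of cartilage collagens II, IX, X, XI and XXVII. They are *Col2a1*, *Col9a1*, *Col9a2*, *Col9a3*, *Col10a1*, *Col11a1*, *Col11a2* and *Col27a1*. They were taken by name and not by a cut on their values, though earlier results of these data were known. The table held 47729 genes, and all 8 were among the 19308 genes with enough reads to be tested. RNAseq was done on polyadenylated RNA of the proximal tibial epiphysis at 14 days of age, in 3 Control and 3 LS1 mice. Control is the random-bred ICR line, and LS1, named Longshanks 1 in the labels, is a line from the same background that was bred for long tibiae relative to body mass. The labels name no transgene and no treatment, the mice came from different families, and the epiphyses of both legs of a mouse were pooled into 1 library. Each sampled piece held the joint cartilage, the ossification center beneath it, the growth plate and the metaphysis, so the values mix cartilage with bone and marrow. LS1 is a single line, so what differs between these groups belongs to LS1 against Control and not to selection in general.

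Collagens are trimers of chains that wind around each other along stretches where glycine recurs at a fixed spacing, as Gly-X-Y. Collagen II is the main fibril of cartilage, collagen XI lies inside that fibril and limits its width, and collagen IX sits on its surface and links it to other matrix molecules. Collagen XXVII is a thin fibrillar collagen that cartilage makes at a low level. Collagen X builds a network around hypertrophic chondrocytes, the large cells at the lower end of the growth plate, and is the usual marker of that zone, while *Col2a1* marks the chondrocytes above it. SOX9, with SOX5 and SOX6, is known to drive the genes for collagens II, IX and XI, and RUNX2 and MEF2C act on *Col10a1*.

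On GRCm38, with the gene models of GENCODE M21, *Col2a1* (ENSMUSG00000022483) lies at chr15:97975602-98004695 on the minus strand, and the other members lie on the plus strand. *Col9a1* (ENSMUSG00000026147) is at chr1:24177610-24252684, *Col9a2* (ENSMUSG00000028626) at chr4:121039385-121055322 and *Col9a3* (ENSMUSG00000027570) at chr2:180597790-180622189. *Col11a1* (ENSMUSG00000027966) is at chr3:114030540-114220718 and *Col11a2* (ENSMUSG00000024330) at chr17:34039437-34066685. *Col27a1* (ENSMUSG00000045672) is at chr4:63214004-63334991 and *Col10a1* (ENSMUSG00000039462) at chr10:34389981-34397085. The genes differ widely in build. *Col10a1* has 3 merged exons over 7105 bases, while *Col11a1* has 68 over 190179 bases.

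The family's shared feature can be read in the coding sequence. In the transcript with the longest reading frame, the longest unbroken run of Gly-X-Y triplets was 339 in *Col2a1* and 338 in both *Col11a1* and *Col11a2*. The run was 113 triplets in each of the 3 collagen IX genes, 217 in *Col27a1* and 61 in *Col10a1*. The number of runs of at least 10 triplets was 2 in *Col2a1*, *Col11a1* and *Col11a2*, 3 in *Col27a1*, 5 in each collagen IX gene and 7 in *Col10a1*. The first 20 triplets of the longest run are shown for 5 genes, 1 of each kind that the results turn on and both collagen XI chains. Capitals mark the glycine codon that opens each triplet, and glycine codons at other positions are in lower case. These were taken from the GENCODE transcripts and read 5′ to 3′.
*Col2a1*: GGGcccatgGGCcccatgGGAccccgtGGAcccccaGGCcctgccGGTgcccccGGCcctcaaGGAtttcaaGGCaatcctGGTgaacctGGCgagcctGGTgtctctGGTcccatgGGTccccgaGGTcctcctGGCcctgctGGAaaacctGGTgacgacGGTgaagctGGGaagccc
*Col11a1*: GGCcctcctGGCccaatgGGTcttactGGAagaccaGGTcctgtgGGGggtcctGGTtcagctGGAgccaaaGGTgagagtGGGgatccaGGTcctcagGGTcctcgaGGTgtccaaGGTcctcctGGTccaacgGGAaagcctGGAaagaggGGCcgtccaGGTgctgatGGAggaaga
*Col11a2*: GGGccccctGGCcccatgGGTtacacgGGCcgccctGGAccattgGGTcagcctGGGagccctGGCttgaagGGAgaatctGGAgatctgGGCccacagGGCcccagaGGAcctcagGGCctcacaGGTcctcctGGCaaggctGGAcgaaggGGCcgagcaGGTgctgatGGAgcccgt
*Col9a1*: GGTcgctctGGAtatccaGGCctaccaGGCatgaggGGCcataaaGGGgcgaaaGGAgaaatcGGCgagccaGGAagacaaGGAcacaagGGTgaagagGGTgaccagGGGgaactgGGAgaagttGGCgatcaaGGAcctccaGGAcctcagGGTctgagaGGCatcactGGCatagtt
*Col10a1*: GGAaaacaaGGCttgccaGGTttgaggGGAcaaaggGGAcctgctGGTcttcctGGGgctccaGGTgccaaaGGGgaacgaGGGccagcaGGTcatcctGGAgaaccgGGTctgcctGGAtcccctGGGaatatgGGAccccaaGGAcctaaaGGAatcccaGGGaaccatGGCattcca
Compared base by base without gaps over these 180 bases, *Col11a1* and *Col11a2* were 64.4% identical, the highest value of any pair of the 8 genes. *Col2a1* and *Col11a2* were 55% identical, *Col9a1* and *Col9a2* 52.2%, and the lowest pair was *Col9a2* and *Col11a2* with 36.1%.

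The 250 bases before the transcription start are shown for *Col10a1* and for the pair *Col11a1* and *Col11a2*, whose counts behaved differently below. They come from the RefSeq table for GRCm38.p6, plus strand, at chr10:34389731-34389980, chr3:114030290-114030539 and chr17:34038888-34039137, and hold 0 annotated exon bases. Capitals mark TATAAA on the forward strand.
*Col10a1*: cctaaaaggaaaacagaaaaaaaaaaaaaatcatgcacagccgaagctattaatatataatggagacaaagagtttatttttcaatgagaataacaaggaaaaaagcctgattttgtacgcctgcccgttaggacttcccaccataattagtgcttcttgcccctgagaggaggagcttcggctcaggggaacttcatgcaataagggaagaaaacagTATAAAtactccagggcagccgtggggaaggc
*Col11a1*: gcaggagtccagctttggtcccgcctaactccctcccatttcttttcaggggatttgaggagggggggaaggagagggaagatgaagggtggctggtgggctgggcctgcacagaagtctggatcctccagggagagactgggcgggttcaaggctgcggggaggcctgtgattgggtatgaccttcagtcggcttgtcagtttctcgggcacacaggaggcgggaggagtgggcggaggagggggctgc
*Col11a2*: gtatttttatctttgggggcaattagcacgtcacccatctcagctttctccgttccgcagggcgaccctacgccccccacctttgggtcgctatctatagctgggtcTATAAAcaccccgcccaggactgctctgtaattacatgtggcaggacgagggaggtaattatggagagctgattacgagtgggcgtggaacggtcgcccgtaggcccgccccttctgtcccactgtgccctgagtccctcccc
Counted from the RefSeq start, TATAAA began at base -32 of *Col10a1* and at base -143 of *Col11a2*, and was not in the *Col11a1* window. The *Col11a2* window ends at base 34039137, ahead of the GENCODE start at 34039437. It was found in 7.59% of 32851 RefSeq promoter windows of this length. ACAAT, a core of SOX sites, and TGTGGT, a core of RUNX sites, were searched on both strands. Of all windows, 27.7% held ACAAT and 14.0% held TGTGGT, and neither was in the windows of the 6 members with an entry. Among these windows, that of *Col9a2* held 181 annotated exon bases, and that of *Col27a1*, at chr4:63215162-63215411, lay inside its GENCODE gene. A match or its absence describes only the letters of the window.

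The deposited values are read counts divided by 1 size factor per library, called normalized counts here. The libraries held 68803249 to 76581954 reads in Control and 82227711 to 88745366 in LS1, so every LS1 library was the deeper one. LS1 replicate 3 stood apart from its group. On the first principal component, which held 35.1% of the variance of all genes tested, it lay at -4.29, against 43.7 and 50.1 for the other LS1 libraries and -41.5 to -22.1 for Control. Main differences are also given without it.

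Together the 8 genes took 3.25%, 3.80% and 3.42% of the reads of Control replicates 1 to 3, against 4.05%, 4.79% and 4.18% of those of LS1 replicates 1 to 3. The groups did not overlap, and the mean share was 0.85 percentage points higher in LS1 (exact permutation test over 6 libraries, two-sided p = 0.1, the smallest p that 3 against 3 can give). Without LS1 replicate 3 the difference was 0.93 points. *Col2a1* alone made up 46.4% to 56.5% of these reads. In every library *Col2a1* ranked 2 to 4 by normalized count among all genes, *Col10a1* ranked 6 to 8, *Col11a1* 7 to 10 and *Col11a2* 11 to 14. The collagen IX genes ranked between 13 and 62, and *Col27a1* between 244 and 329. With at least 23076 reads for any member in any library, counting error was small against the spread between mice. In bulk tissue, more cells of a type and more RNA per cell cannot be told apart.

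Between the lines, collagens IX and X showed the largest differences. All 3 collagen IX genes and *Col10a1* had every LS1 library above every Control library, at 1.32 to 1.65 times the Control mean. *Col2a1*, *Col11a1*, *Col11a2* and *Col27a1* had groups that overlapped. Of the 8 genes, 4 were thus non-overlapping and higher in LS1, where 10.3% of all genes tested were. Limma called 0 of the 8 at an adjusted p under 0.05, where it called 0.0725% of all genes tested. At an unadjusted p under 0.05, the same 4 genes were higher in LS1, against 7.08% of all genes. With DESeq2 on the recovered reads, *Col9a1*, *Col9a2* and *Col10a1* passed an adjusted p of 0.05, 3 of 8 where 1.43% of all genes were called higher. The median log2 fold change of the 8 genes was 0.36, and that of all genes was 0.0054.

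**Figure D1:**
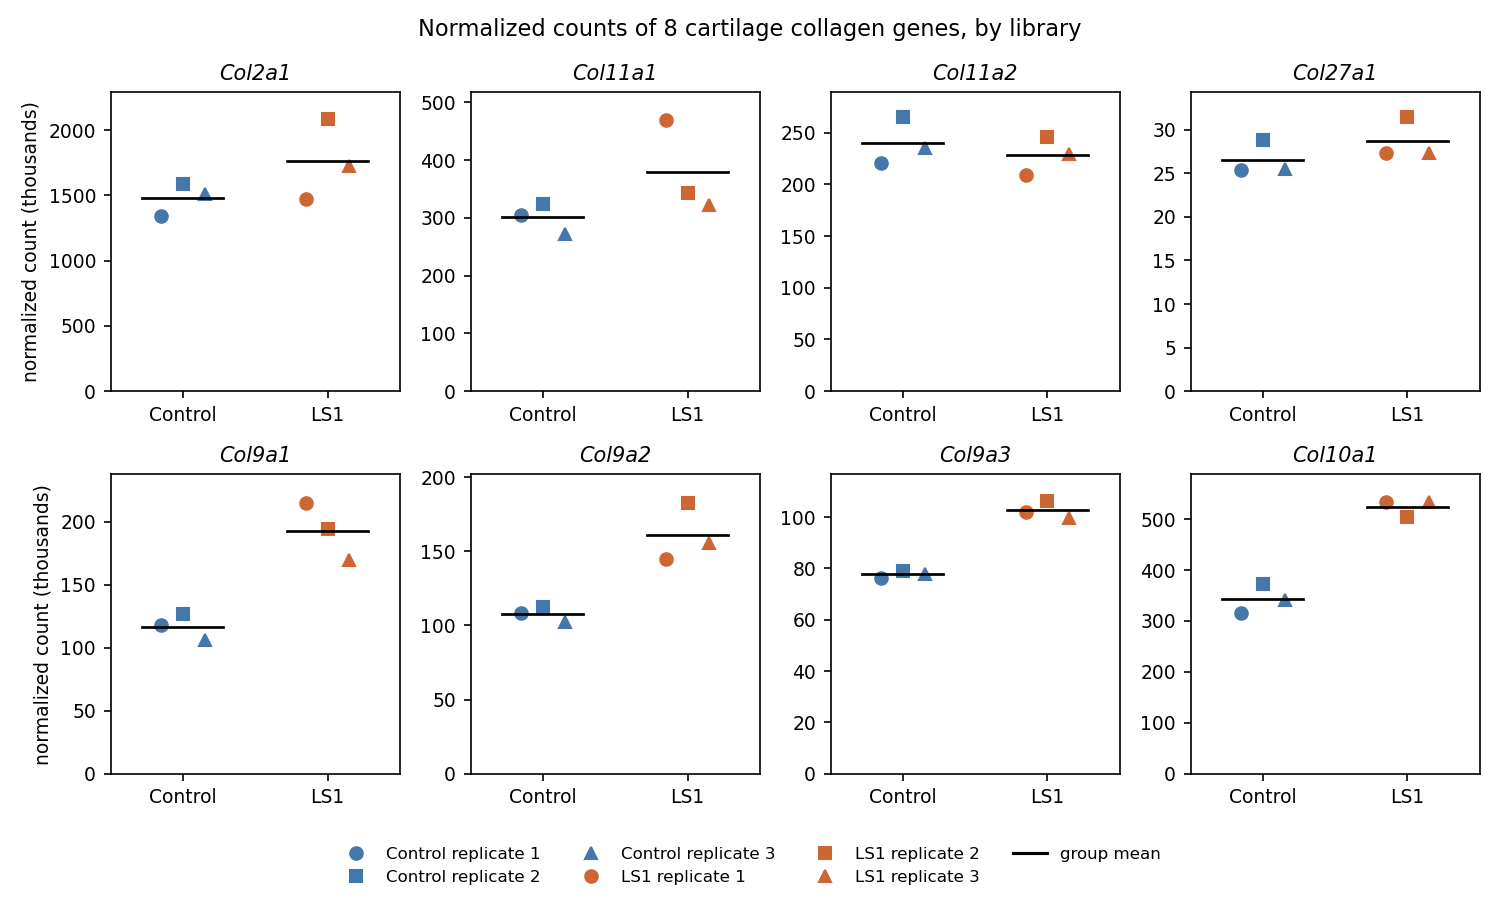
Normalized counts (vertical axes, each from 0) of the 8 genes in the 3 Control and 3 LS1 libraries, 1 point per library, with a line at the group mean. The Control and LS1 points are fully separated for *Col9a1*, *Col9a2*, *Col9a3* and *Col10a1* and overlap for the other 4 genes.

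Collagen II showed a mean difference smaller than the spread of LS1. *Col2a1* had 1344212, 1590021 and 1508984 normalized counts in Control replicates 1 to 3 and 1472058, 2086285 and 1723317 in LS1 replicates 1 to 3. LS1 replicate 2 was the highest of all libraries, and LS1 replicate 1 lay inside the Control range. The means were 1481072 ± 125259 in Control and 1760553 ± 308802 in LS1 (SD, n = 3 each). The log2 fold change was 0.24 with a 95% interval of -0.12 to 0.59 (limma, adjusted p = 0.557). Leaving out LS1 replicate 2 gave 0.11 and leaving out LS1 replicate 1 gave 0.36. The study had chosen *Col2a1* and *Col10a1* for follow-up with results of these libraries known, so neither value is independent evidence of its direction. It listed *Col10a1* as higher in LS1 in these libraries and *Col2a1* as not different. Its qPCR, on growth plate alone from mice of a later generation, found no significant difference between LS1 and Control for either gene. The qPCR estimates in LS1 were slightly below Control for both genes, opposite to the direction here, with intervals that included equal levels.

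The collagen XI chains behaved differently from each other. *Col11a1*, which codes for the α1(XI) chain, had 305774, 323897 and 272494 normalized counts in Control and 469633, 343496 and 322604 in LS1. LS1 replicate 1 was far above the rest, LS1 replicate 3 lay within the Control range, and the coefficient of variation was 21% in LS1 and 8.67% in Control. The log2 fold change was 0.32 with a 95% interval of -0.05 to 0.68 (limma, adjusted p = 0.449). It was 0.15 without LS1 replicate 1 and 0.42 without LS1 replicate 3. *Col11a2*, for the α2(XI) chain, had 220301, 265095 and 235144 normalized counts in Control and 209383, 245904 and 229648 in LS1. Its groups lay on top of each other, with the lowest library in LS1 and the highest in Control, and it was the single member with a mean below Control. Its log2 fold change was -0.07 with a 95% interval of -0.37 to 0.23 (limma, adjusted p = 0.861), and without 1 library in turn it ran from -0.13 to 0.0014. The upper end of its 95% interval is below the estimate of each collagen IX gene.

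*Col27a1*, the low-level fibrillar collagen, had 25354, 28816 and 25523 normalized counts in Control and 27272, 31479 and 27302 in LS1. Control replicate 2 lay above LS1 replicates 1 and 3, so the groups overlapped. The log2 fold change was 0.11 with a 95% interval of -0.17 to 0.39 (limma, adjusted p = 0.752). It was 0.041 without LS1 replicate 2 and 0.17 without Control replicate 2. The microRNA gene *Mir455* lies in an intron of *Col27a1* on the same strand and was at 0 reads in 5 of the 6 libraries.

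Collagen IX is assembled from 1 chain of each of its 3 genes, and all 3 were higher in LS1. *Col9a1* had 117743, 126549 and 106039 normalized counts in Control and 214491, 194599 and 169670 in LS1. Even the lowest LS1 library, replicate 3, was well above the highest Control library. This was the largest difference of the 8 genes, a log2 fold change of 0.72 (SE 0.14, 95% interval 0.41 to 1.03), or 1.65 times the Control mean. The adjusted p was 0.125 with limma and 0.00134 with DESeq2. Without LS1 replicate 3 the log2 fold change was 0.81, and limma then called it (adjusted p = 0.0235), the 1 member called in that comparison.

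*Col9a2* had 108553, 112257 and 102011 normalized counts in Control and 144872, 182881 and 155644 in LS1. Again the groups were apart, with LS1 replicate 2 the highest. The log2 fold change was 0.58 (SE 0.14, 95% interval 0.27 to 0.88), with an adjusted p of 0.184 from limma and 0.0138 from DESeq2. *Col9a3* had the tightest replicates of the family, at 76069, 79121 and 77678 normalized counts in Control and 102083, 106438 and 99735 in LS1. Its coefficient of variation was 1.97% in Control and 3.31% in LS1, and the groups were apart at 1.32 times the Control mean. The log2 fold change was 0.40 (SE 0.12, 95% interval 0.14 to 0.67), with an adjusted p of 0.250 from limma and 0.0804 from DESeq2. The 3' end of *Col9a3* overlaps 234 exon bases of *Tcfl5* on the opposite strand, a gene with at most 422 normalized counts in a library, against at least 76069 for *Col9a3*.

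*Col10a1*, the hypertrophic chondrocyte collagen, had 315844, 372943 and 340963 normalized counts in Control and 533299, 504434 and 533263 in LS1. The 3 LS1 libraries were close together, with a coefficient of variation of 3.18%, and LS1 replicate 3 was as high as LS1 replicate 1. The means were 343250 ± 28618 and 523666 ± 16655 (SD, n = 3 each). The log2 fold change was 0.61 (SE 0.13, 95% interval 0.32 to 0.90), with an adjusted p of 0.158 from limma and 0.00367 from DESeq2. It was 0.60 without LS1 replicate 3. *Col10a1* lies wholly inside *Nt5dc1*, a gene of the opposite strand, with 18 bases of exon in common. *Nt5dc1* had 1672 to 1911 normalized counts in Control and 2104 to 2601 in LS1, so its level also did not overlap between the groups. *Col10a1* had at least 315844 in any library. Whether the counting used strand is not given in the sources used here, so reads of the 2 genes cannot be told apart where they overlap.

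**Figure D2:**
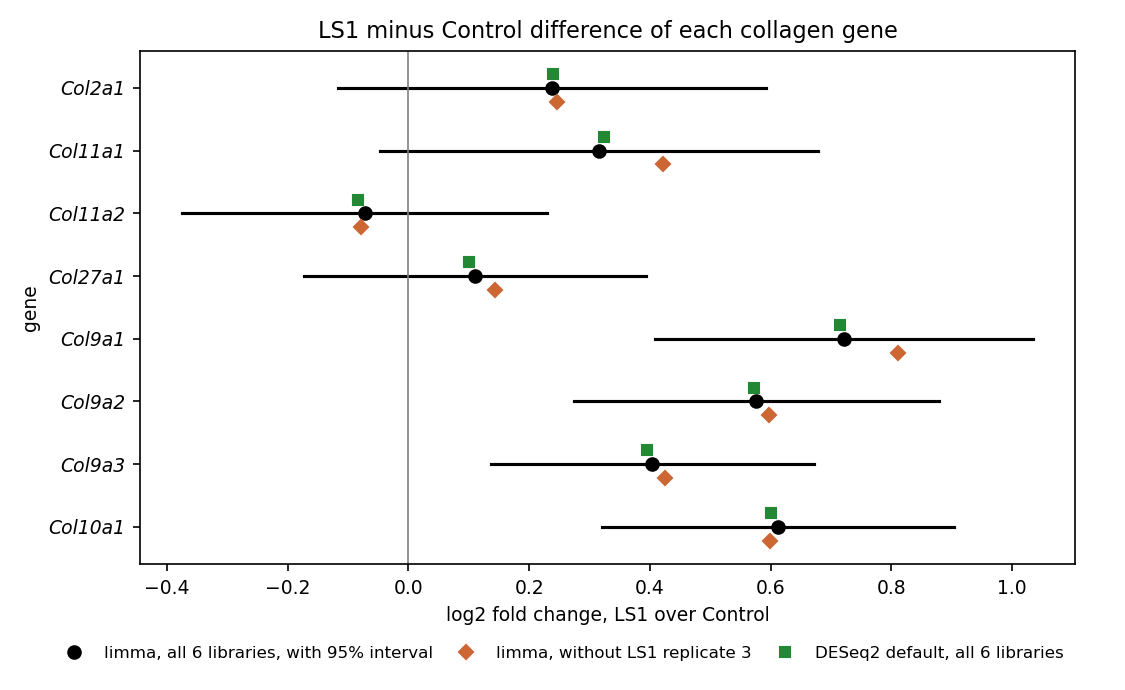
Log2 fold change of LS1 over Control (horizontal axis) for each of the 8 genes, with the limma estimate and its 95% interval in black, the limma estimate without LS1 replicate 3 as a diamond and the DESeq2 estimate as a square. The intervals of *Col9a1*, *Col9a2*, *Col9a3* and *Col10a1* lie above 0, those of the other 4 genes include 0, and all 3 estimates of a gene lie inside its interval.

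The exact permutation test over the 6 libraries gave p = 0.1 for each of the 4 genes whose groups were apart, the smallest value it can give. The same exact test gave p = 0.3 for *Col2a1* and *Col27a1*, p = 0.2 for *Col11a1* and p = 0.5 for *Col11a2*. Control replicate 2 was the highest Control library for all 8 genes. LS1 replicate 2 was the highest LS1 library for *Col2a1*, *Col9a2*, *Col9a3*, *Col11a2* and *Col27a1*, whereas LS1 replicate 1 was the highest for *Col9a1* and *Col11a1*. For *Col10a1*, LS1 replicates 1 and 3 were nearly equal and replicate 2 was the lowest.

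Levels can be compared between genes only per length, and normalized counts per kilobase of merged exon were used. In Control the order was *Col2a1* (160237 ± 13552 per kilobase, SD, n = 3), *Col10a1* (109665 ± 9143), *Col11a2* (34940 ± 3319), *Col9a2* (34768 ± 1676), *Col11a1* (23597 ± 2046), *Col9a1* (23042 ± 2030), *Col9a3* (20146 ± 396) and *Col27a1* (2040.0 ± 150). The Control libraries of *Col11a2* and *Col9a2* overlapped, as did those of *Col11a1* and *Col9a1*. In LS1, *Col2a1* (190474 ± 33409) and *Col10a1* (167305 ± 5321) overlapped, and *Col10a1* was above *Col2a1* in LS1 replicate 1. *Col9a2* (52062 ± 6330) then stood above *Col9a1* (38066 ± 4431), *Col11a2* (33214 ± 2662), *Col11a1* (29706 ± 6242) and *Col9a3* (26668 ± 883), each of which overlapped its neighbour in that order. *Col27a1* was last in all 6 libraries, at 2203 ± 186 in LS1. *Col2a1* has other annotated transcripts that bring its merged exons to 9243 bases, against 5104 in its longest transcript. With the longest transcript as the length, *Col2a1* had a mean of 317557 per kilobase over the 6 libraries and was first in every library, and *Col10a1*, at 138485, was second in every library.

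**Figure D3:**
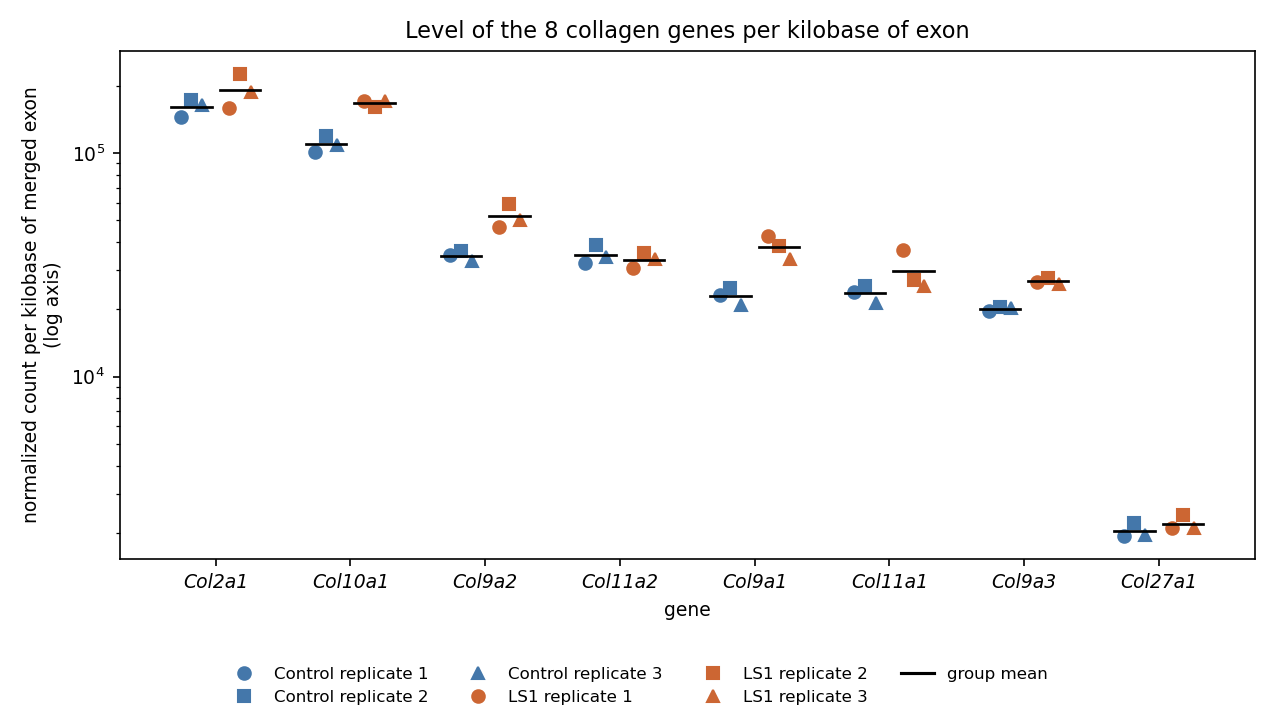
Normalized counts per kilobase of merged exon (log axis) of the 8 genes, ordered by their mean over the 6 libraries, with 1 point per library and a line at each group mean. *Col2a1* and *Col10a1* lie at 100909 or above in every library, 5 genes lie between 19743 and 59089, and *Col27a1* lies near 2121.

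Ratios within a library do not depend on the size factor. The ratio of *Col10a1* to *Col2a1* reads sets the hypertrophic collagen against the main one, and it was 0.235, 0.235 and 0.226 in Control and 0.362, 0.242 and 0.309 in LS1. Every LS1 library was above Control, but LS1 replicate 2 only just. The mean log2 ratio was 0.37 higher in LS1 (exact permutation p = 0.1, adjusted p = 0.233 over 7 ratios). It was 0.24 without LS1 replicate 1, 0.53 without LS1 replicate 2 and 0.35 without LS1 replicate 3. Within collagen IX, *Col9a1* to *Col9a3* was 1.55, 1.60 and 1.37 in Control and 2.10, 1.83 and 1.70 in LS1, a mean log2 difference of 0.32 with groups apart (exact permutation p = 0.1, adjusted p = 0.233), and of 0.39 without LS1 replicate 3. The other pairs of this collagen overlapped, with log2 differences of 0.14 for *Col9a1* to *Col9a2* (exact permutation p = 0.6) and 0.17 for *Col9a2* to *Col9a3* (exact permutation p = 0.2). The latter was 0.10 without LS1 replicate 2.

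Within collagen XI, *Col11a1* to *Col11a2* was 1.39, 1.22 and 1.16 in Control and 2.24, 1.397 and 1.405 in LS1. LS1 replicate 1 carried most of the difference, and the other LS1 libraries lay just above the highest Control library. The mean log2 difference was 0.39 (exact permutation p = 0.1, adjusted p = 0.233). It was 0.16 without LS1 replicate 1 (exact permutation p = 0.2), with the groups still apart, and 0.50 without LS1 replicate 3. The ratios *Col11a1* to *Col2a1* and *Col27a1* to *Col2a1* had log2 differences of 0.08 and -0.13 with overlapping groups (exact permutation p = 0.9 and 0.3). The latter was -0.067 without LS1 replicate 2 and -0.22 without LS1 replicate 1. Further ratios were computed after the values were seen and were not tested. Of these, *Col11a2* to *Col2a1* lay between 0.156 and 0.167 in Control and between 0.118 and 0.142 in LS1, lower in every LS1 library. *Col9a1* to *Col11a2* lay between 0.451 and 0.534 in Control and between 0.739 and 1.02 in LS1, and *Col10a1* to *Col11a2* between 1.41 and 1.45 in Control and between 2.05 and 2.55 in LS1. Both were higher in every LS1 library.

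**Figure D4:**
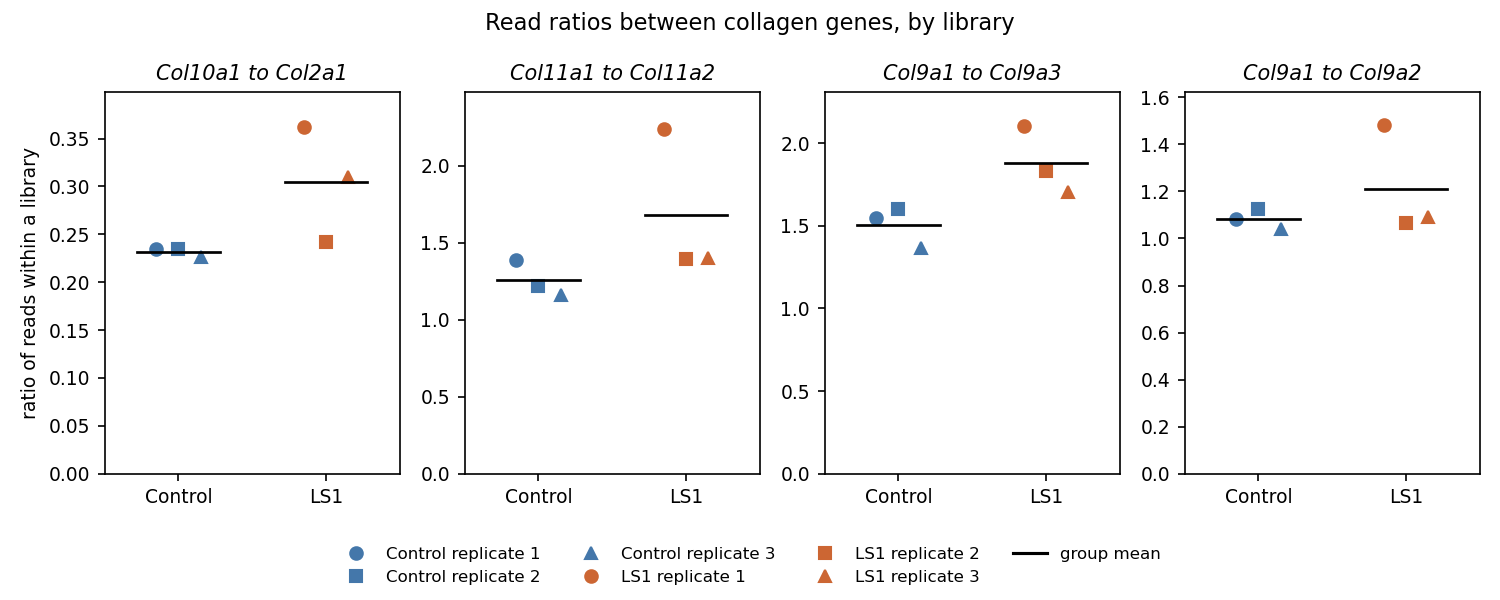
Ratio of reads between pairs of collagen genes (vertical axes, each from 0) in the 3 Control and 3 LS1 libraries, 1 point per library, with a line at the group mean. LS1 replicate 1 has the highest ratio in all 4 panels, at 0.362 for *Col10a1* to *Col2a1* and 2.24 for *Col11a1* to *Col11a2*.

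Other cartilage genes give a scale for these differences. A list of 19 genes of cartilage other than collagens, among them aggrecan, link protein and the matrilins, had a mean log2 level 0.33 higher in LS1, with groups apart (exact permutation p = 0.1). Of its genes, 9 had an unadjusted limma p under 0.05 and were higher in LS1, where 7.08% of all genes were, and 1 was lower, where 5.86% were. Limma's adjusted p of 0.05 was passed by 0, and DESeq2 called 6 higher, where it called 1.43% of all genes higher. The list's median log2 fold change was 0.48, its highest gene was *Hapln1* with 0.94 and its lowest *Cytl1*, for a secreted cartilage protein, with -0.49. It holds *Hapln1*, *Matn3* and *Epyc*, which the study had selected from these libraries as higher in LS1. Since the list was itself higher in LS1, a gene with no difference of its own comes out lower relative to it. Relative to the mean of this list in the same library, *Col9a1* was 0.39 higher in LS1 on the log2 scale and *Col10a1* 0.28 higher, with groups apart. *Col11a2* was 0.40 lower (-0.40) and *Col27a1* 0.22 lower (-0.22), also with groups apart, while their own log2 fold changes were -0.07 and 0.11. *Col9a2* was at 0.25, *Col9a3* at 0.07, *Col11a1* at -0.01 and *Col2a1* at -0.09, with overlapping groups. Each of the 4 differences with groups apart had an exact permutation p of 0.1, or 0.2 adjusted over the 8 genes. Without LS1 replicate 3 these were 0.41 for *Col9a1*, -0.47 for *Col11a2*, 0.20 for *Col10a1* and -0.25 for *Col27a1*, all with groups apart. The exact permutation p was then 0.2 for *Col10a1* and for *Col27a1*. Without LS1 replicate 1, *Col11a2* was at -0.29 and *Col27a1* at -0.13 (exact permutation p = 0.2 each), both still with groups apart. For *Col27a1* the gap was narrow, with 0.742 in LS1 replicate 2 against 0.750 in Control replicate 1. *Col9a2* ran from 0.17 without LS1 replicate 2 to 0.37 without LS1 replicate 1. With the list's median in place of its mean, *Col9a1* was at 0.26, *Col11a2* at -0.53 and *Col27a1* at -0.35 with groups apart, while *Col10a1* was at 0.15 and its groups overlapped (exact permutation p = 0.2).

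**Figure D5:**
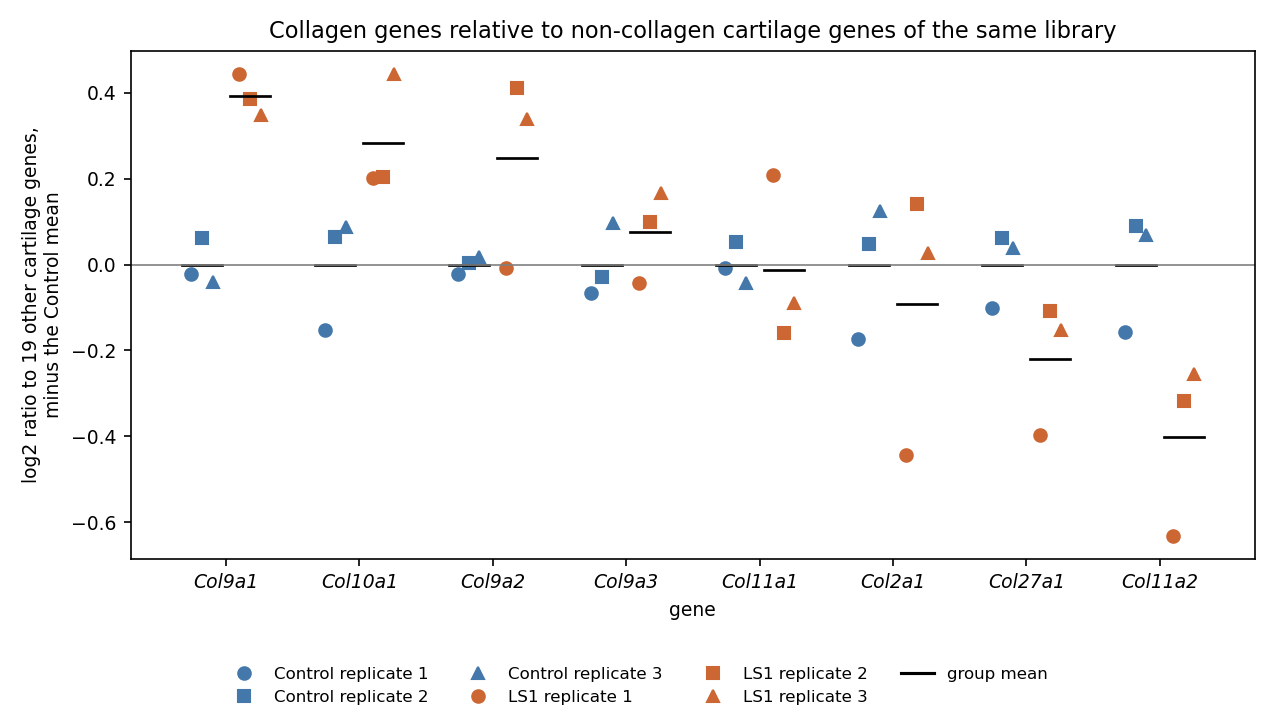
Log2 ratio of each collagen gene to the mean of 19 non-collagen cartilage genes of the same library, minus the Control mean (vertical axis), with 1 point per library and a line at the group mean. All LS1 points of *Col9a1* and *Col10a1* lie above Control, those of *Col11a2* and *Col27a1* lie below it, and the other 4 genes overlap.

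Markers of other cells in the sample moved too. The summed level of 12 erythroid genes ranged from 1815726 to 2359238 normalized counts in Control and from 971305 to 1187428 in LS1. All 12 had a lower mean log2 level in LS1, where 50.7% of all genes had a positive log2 fold change. At an unadjusted limma p under 0.05, 6 were lower, against 5.86% of all genes. Limma's adjusted p was passed by 2, both lower, where 0.0725% of all genes passed in either direction. They were *Hba-a2* with a log2 fold change of -1.42 (limma adjusted p = 0.0291) and *Hbb-bs* with -0.95 (limma adjusted p = 0.0408). DESeq2 called the same 2 lower, against 0.943% of all genes. These globin genes have near-identical copies that can share reads. The value nearest 0 on that list was -0.24 for *Rhag*. The sum of 11 B cell genes lay between 57644 and 60911 in Control and between 35067 and 54252 in LS1, also without overlap. Sums of 12 osteoblast, 10 osteoclast, 11 neutrophil, 10 macrophage and 10 skeletal muscle genes overlapped between the groups. The B cell genes had a median of -0.46, with *Cd79a* the highest at 0.0067. The median of the osteoblast genes was -0.0017, with *Ifitm5* at 0.37 and *Bglap2*, an osteocalcin gene with a near-identical copy, at -1.18 with overlapping groups. Its relative *Bglap* was at -1.10, lower in every LS1 library, with an adjusted p of 0.350 from limma and 0.0448 from DESeq2. Osteoclast genes ran from -0.40 for *Itgb3* to 0.16 for *Dcstamp* (median 0.015), neutrophil genes from -0.08 for *Retnlg* to 0.42 for *Elane* (median 0.14) and the 9 tested muscle genes from -1.10 for *Myh4* to -0.26 for *Myh2* (median -0.68). The 9 tested macrophage genes had a median of 0.28, from -0.44 for *Cd163* to 1.10 for *Mpeg1*, which lay in the Control range in LS1 replicate 3. Limma's adjusted p was passed by 0 genes of these 6 lists. At an unadjusted limma p under 0.05, 7 B cell genes, 1 osteoblast gene and 1 muscle gene were lower in LS1, against 5.86% of all genes. At the same threshold 2 neutrophil and 2 macrophage genes were higher, against 7.08% of all genes. DESeq2 called 1 B cell and 1 osteoblast gene lower, against 0.943% of all genes, and 1 macrophage gene higher, against 1.43%. All genes of the cartilage, osteoblast, osteoclast and erythroid lists had reads in every library, and the labels name bone, cartilage and marrow as the tissue. The part of the blood cell genes in the collagen differences was not tested, and the ratios to other cartilage genes above do not use them.

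The transcription factors known to act on these collagens were read next. Of 14 such regulators, 4 had an unadjusted limma p under 0.05, all higher in LS1, where 7.08% of all genes tested were. *Sox5*, *Sox6* and *Sox9* are also on the list of 19 cartilage genes above. After adjustment 0 passed, and the median log2 fold change was 0.29. *Sox9*, the master regulator of chondrocytes, had 5217, 5179 and 4249 normalized counts in Control and 7818, 8501 and 4668 in LS1. LS1 replicate 3 lay among the Control libraries, and the log2 fold change was 0.48 (limma adjusted p = 0.372). The study's qPCR of the growth plate alone went the other way, with a trend to lower *Sox9* in LS1. *Sox5* had a log2 fold change of 0.49 and *Sox6* one of -0.31, both with overlapping groups. *Runx2*, which acts in hypertrophic chondrocytes and osteoblasts, had 8131, 7142 and 6220 normalized counts in Control and 11098, 11481 and 9618 in LS1. Its groups were apart, with a log2 fold change of 0.59 (limma adjusted p = 0.185, DESeq2 adjusted p = 0.0282).

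Matrix proteins that bind or accompany these collagens form the next group. Of 16, 7 had an unadjusted limma p under 0.05, all higher in LS1, where 7.08% of all genes were. DESeq2 called 5 higher, where it called 1.43% of all genes higher, and the median log2 fold change was 0.32. Apart from *Thbs3*, every gene in these counts is also on the list of 19 cartilage genes above, so the counts are not separate from that list's. *Hapln1*, the link protein that ties aggrecan to hyaluronan, had the largest difference, a log2 fold change of 0.94 (limma adjusted p = 0.159, DESeq2 adjusted p = 0.00212). *Chad*, for chondroadherin, was the lowest with -0.29 and overlapping groups. *Hapln1*, *Matn3*, *Epyc* and *Runx2* are among the genes that the study selected from these libraries, so their counts are not independent evidence. The study's qPCR of the growth plate alone found no significant difference between LS1 and Control for any of them.

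Of 34 genes for collagen hydroxylation, folding, export, trimming and crosslinking, 9 had an unadjusted limma p under 0.05, all higher in LS1. Of all genes, 7.08% were. DESeq2 called 3 of the 34 higher, where it called 1.43% of all genes higher. The median log2 fold change was 0.20. *Tll1*, a tolloid-like protease that trims procollagen, was the highest with 1.03, at 104 to 155 normalized counts in Control and 231 to 270.4 in LS1. *Pcolce*, an enhancer of that trimming, was the lowest with -0.33 and overlapping groups. Among 13 collagen receptors and proteases, 2 had an unadjusted limma p under 0.05 and were called higher by DESeq2, against 7.08% and 1.43% of all genes. They were *Mmp3* with a log2 fold change of 0.92 and the integrin gene *Itga1* with 0.66. *Mmp13*, the collagenase of hypertrophic cartilage and bone, was the lowest with -0.37 and overlapping groups.

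Hypertrophic chondrocyte genes other than *Col10a1* gave a mixed picture. Of 11, 2 had an unadjusted limma p under 0.05, both higher in LS1, against 7.08% of all genes, and DESeq2 called 0. They were *Panx3*, a channel protein, with a log2 fold change of 0.47 and *Cd200* with 0.44. *Mmp13* is also on this list, as are *Alpl*, which the osteoblast list shares, and *Fgfr3*, which the cartilage list shares. The sampled piece held bone, so these values do not describe hypertrophic chondrocytes alone. The median of the 11 was 0.24, against 0.61 for *Col10a1*. Of 17 other collagens of fibrils, microfibrils and fibril surfaces, 2 had an unadjusted limma p under 0.05 and were higher, against 7.08% of all genes. At the same threshold 1 was lower, against 5.86% of all genes. DESeq2 called 0, and the median was 0.17. *Col16a1* was the highest with 0.72 and *Col5a3* the lowest with -0.81. *Col1a1*, the main collagen of bone, had 2016431 to 2495226 normalized counts in Control and 1778579 to 1995102 in LS1, lower in every LS1 library but with a log2 fold change of -0.19 and an adjusted p of 0.616 from limma. In the lists of regulators, partners, processing genes, receptors and proteases, hypertrophic genes and other collagens, 0 genes passed limma's adjusted p, and the unadjusted and DESeq2 counts are those given above.

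Genes whose level followed a collagen most closely over the 6 libraries were found by the root mean square difference of centred log2 profiles. For *Col2a1* these were *Pdxk*, *Rpp40*, *Il4ra*, *Gm3650* and *Cul7*, with differences of 0.036 to 0.043. For *Col10a1* they were *Gm15289*, *Parp8*, *Adcy1*, *Loxl4* and *Cds1*, with 0.055 to 0.086. *Loxl4*, a crosslinking enzyme of collagen, had 13412 to 16514 normalized counts in Control and 20589 to 24999 in LS1. For the mean of the 8 genes they were *Mfsd11*, *5930420M18Rik*, *Abhd13*, *Thbs3* and *Ripk1*, with 0.035 to 0.047, and *Thbs3* codes for a thrombospondin of cartilage matrix. The members themselves were left out of that search. Between members, *Col11a2* and *Col27a1* were the closest pair with 0.10, and *Col9a1* and *Col11a2* the farthest with 0.43. Among its partners in the fibril, *Col2a1* differed by 0.33 from *Col9a1*, 0.31 from *Col11a1*, 0.19 from *Col9a2*, 0.18 from *Col11a2* and 0.16 from *Col9a3*. These are descriptions over 6 libraries of 2 groups.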

How the data were processed

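RNAseq compared 3 Control with 3 LS1 mice in the proximal tibial epiphysis. The authors mapped reads to GRCm38 (Ensembl release 84) with HISAT2 2.0.2, counted them per gene with featureCounts 1.4.6 and used DESeq2. The deposited table holds 1 signal per gene and library, its reads over the size factor that the authors computed for that library, and 0 of its columns were left unused. Reads were recovered by dividing by the value of 1 read (0.870 to 1.11), and 100% came out whole within 0.01. In Control replicate 1 this step is so close to 1 that recovered reads and rounded values cannot be told apart. Values were tested with limma 3.58.1 (R 4.3.3) on log2(value + 1), with mean-variance trend and robust moderation, over the 19308 genes whose mean was 20 reads or more. P-values were adjusted by Benjamini-Hochberg. The added 1 shrinks fold changes of genes with few reads, which the members are not. DESeq2 1.42.0, edgeR 4.0.16 and limma-voom on recovered reads, other scalings, pseudocounts and filters, the title letter as a replicate block, and each library left out in turn were alternatives. Ratios were tested by exact two-sided permutation of the libraries. Scripts were tested on simulated data. Depth limits no member, since the fewest reads of one in a library were 23076, and the error is that between mice.

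Gene models were from GENCODE M21, where 99.1% of identifiers had a symbol. Merged exons include those of every annotated transcript. The 8 genes, the gene lists and the tests were chosen with earlier results of these data known. Named genes were all 8 members, the genes of each list with an adjusted p under 0.05 and those with its highest and lowest log2 fold change, *Sox5*, *Sox6*, *Sox9* and *Runx2*, the 5 genes nearest in profile to *Col2a1*, to *Col10a1* and to the members' mean, and genes that overlap a member. *Bglap*, *Col1a1*, *Matn3*, *Epyc*, *Cd200* and *Itga1* are further examples, named after their values were seen. *Alpl* and *Fgfr3* are named for being shared between lists. A gene that this rule names is not reported here.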

Additional observations from a re-analysis of the deposited data

How the results depend on the processing

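The count of the 8 genes called moved with the test and with the filter on reads. It was 0 with limma and 3 with DESeq2 default, with DESeq2 moderated fold changes and with limma without a filter on reads, and 0 with edgeR, limma-voom, other normalizations, a filter at a mean of 100 reads, other pseudocounts and no trend. Without 1 library in turn limma called 0 to 1, the 1 being *Col9a1* without LS1 replicate 3. DESeq2 called 2 without Control replicate 1 and 3 without LS1 replicate 3, alternatives that were chosen after seeing the data. The meaning of the letters in the sample titles is not given. Between libraries of the same letter, the correlations of deviations were 0.054, 0.021 and 0.22, and only the last Control library was nearest its own letter. With so few libraries, these values cannot show whether the letters pair the libraries. With the letter as a replicate block, limma called 0 of the 8 genes, but the adjusted p of each was lower. It was 0.0778 for *Col9a1* and 0.0876 for *Col10a1*, against 0.125 and 0.158 without the block. Of 168 fold changes over 21 alternatives, 152 kept direction and call, 15 passed the threshold in addition and 1 reversed, *Col11a2* at 0.0014 without Control replicate 2. Without 1 library in turn, the log2 ratio of *Col9a1* to *Col9a2* ran from -0.0083 to 0.23 and that of *Col11a1* to *Col2a1* from -0.21 to 0.27. Relative to other cartilage genes, *Col2a1* ran from -0.21 to 0.085 and *Col11a1* from -0.13 to 0.060, while *Col9a3* was at -0.055 with the list's median. The cause was not tested. Per kilobase of longest transcript, means were 317557 (*Col2a1*), 40388 (*Col9a1*), 29608 (*Col9a3*), 44300.2 (*Col11a1*), 38731 (*Col11a2*) and 3629 (*Col27a1*), since the shorter length divides the same counts. With 3 mice a group, no exact permutation test could pass 0.05.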
